A study of Homo sapiens with 4 samples.

Results

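The 39 genes described here encode nuclear subunits of respiratory complexes II, III, IV and V, and were taken by name from a table of 59384 gene names. Complex II contributed 4 of them, complex III 9, complex IV 11 and complex V 15, and all 39 were present in the table. Their mRNA was read from RNA sequencing of Daoy, an established cell line from a human medulloblastoma. Of the 4 libraries, 2 were from cells that had received shFABP4, a virus with a hairpin against FABP4, and 2 from cells that had received the control virus pLKO, so both groups had been infected. The FABP4 protein carries fatty acids in the cytosol. The labels give the genotype as FABP4 knockdown in shFABP4 and as wild type in pLKO. They give no time after infection and name no separate cultures, so the p-values below reflect how far these libraries differ, and that spread may be technical.

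Complex II takes electrons from succinate and passes them to ubiquinone, complex III passes them on to cytochrome c, and complex IV hands them to oxygen. Complexes III and IV pump protons across the inner mitochondrial membrane, and complex V, the ATP synthase, lets them flow back and makes ATP. All subunits of complex II are encoded in the nucleus, whereas complexes III, IV and V combine nuclear subunits with a few made from mitochondrial DNA.

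One library stood apart from the other 3. The library shFABP4 1 held 2539862 fragments and shFABP4 2 held 20431660, against 8988961 in pLKO 1 and 13839885 in pLKO 2. Fragments were counted in 51762 gene names in shFABP4 1 and 22350 in shFABP4 2, against 23372 and 25560 in the pLKO libraries. From 2657 coding genes without any fragment in the 3 remaining libraries, background was estimated at 54.9% of the fragments of shFABP4 1, at rates of 3.44 fragments per kb of exon below 40% GC and 18.4 above 60% GC. Across tested genes, which are not independent replicates, log2 values of shFABP4 1 correlated with the other libraries at 0.544 to 0.559, those of shFABP4 2 with pLKO at 0.895 and 0.899, and those of the pLKO pair at 0.987. FABP4 itself had 14 and 0 fragments in the shFABP4 libraries and 1 and 6 in the pLKO libraries, with 4.71 expected from background in shFABP4 1, so these counts do not check the labels. The neural and mesenchymal markers of the line summed to 3615 and 131996 fragments in shFABP4 and 13921 and 21655 in pLKO. VIM alone held 2830 and 131016 of these in shFABP4 and 13811 and 21475 in pLKO, so the sum says little of the others. In pLKO 1 and 2, GLI1 had 49 and 72, NES 35 and 69, GLI2 17 and 23, PTCH1 9 and 14 and SOX2 0 and 2. Markers of other medulloblastoma groups, adipocytes and endothelium each summed to at most 32 fragments in shFABP4 2 and in either pLKO library, and blood markers, mostly HBB, to 319 in shFABP4 2 and 183 and 242 in pLKO. In shFABP4 1 these lists summed to 78, 423, 426 and 192 fragments, where background alone predicts 81.6, 249.7, 289.9 and 87.0, and their part in the results was not tested.

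Scaled over all tested genes, the subunit mRNAs were low in shFABP4 1, while in shFABP4 2 their sum was close to that of pLKO and single genes lay on either side. The 39 genes together took 0.540% of all fragments in shFABP4 1 and 1.90% in shFABP4 2, against 1.78% and 1.79% in the pLKO libraries. Normalised CPM (counts scaled to library size after adjustment by the trimmed mean of M values, TMM) in shFABP4 1 were below both pLKO libraries for all 39 genes. In shFABP4 2 the genes were spread on both sides, with log2 fold changes of this library over pLKO from -2.18 for ATP5MC1 to 1.29 for ATP5F1A. Both shFABP4 libraries were below both pLKO libraries for 19 of 39 genes, where the same was true of 26.1% of the 14735 genes tested, and above both for 0 of 39, against 28.5% of genes tested. All 39 were below in shFABP4 1, so the 0 follows from that library and the 19 counts shFABP4 2 alone. Scaled on all fragments, the 1023 abundant genes defined below had a median log2 fold change of -0.93, and the 32 subunit genes among them -0.45. The comparison with all genes tested therefore does not set the subunits apart. In bulk RNA, a change in the number of cells in some state and a change in the RNA per cell cannot be told apart.

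**Figure D1:**
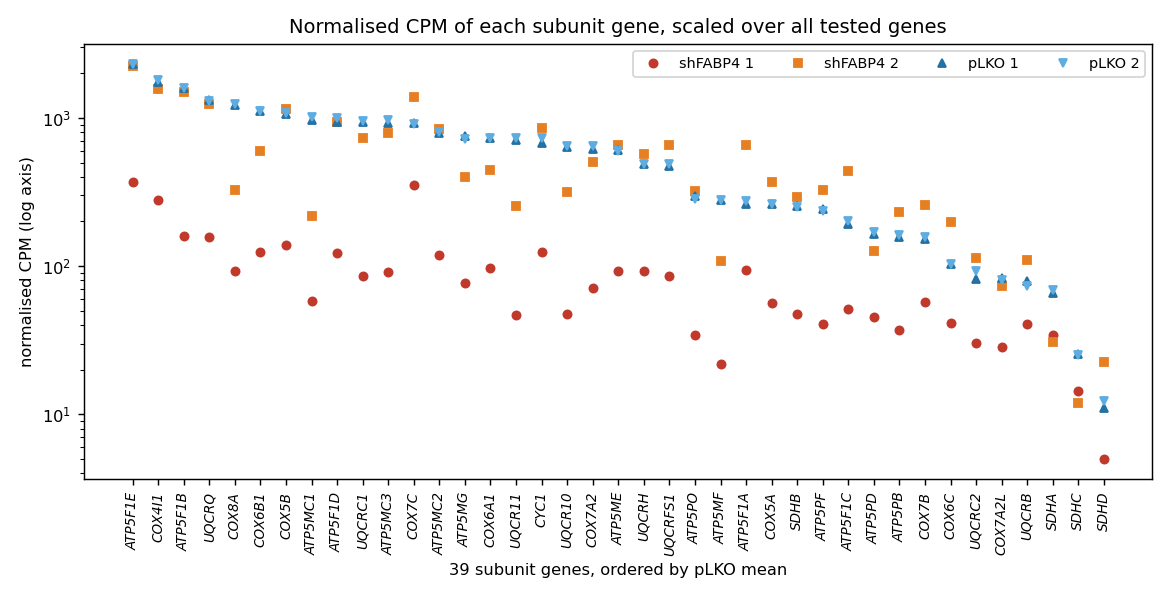
TMM-normalised CPM (log axis) of the 39 subunit genes in each of the 4 libraries, ordered by the pLKO mean; each point is 1 library. The shFABP4 1 points lie below both pLKO points for every gene, while the shFABP4 2 points lie above pLKO for genes such as COX7C and ATP5F1A and below it for COX8A, ATP5MC1, UQCR11 and ATP5MF.

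No subunit gene passed the test on all 4 libraries. The edgeR quasi-likelihood test called 0 of 39 at an adjusted p under 0.05, where it called 0% of all 14735 genes, and 0 of 39 had an unadjusted p under 0.05. Adjusted p-values of the 39 genes started at 0.391, and their log2 fold changes (shFABP4 over pLKO) ran from -2.84 to 0.48 with a median of -0.74, against a median of 0.34 over all genes. DESeq2 called 1 of 39, ATP5MC1, beside 4.72% of genes tested, and limma-voom called 0. With shFABP4 1 left out, edgeR called 35 of 39, 19 higher and 16 lower, beside 66.9% of 15301 genes (34.2% higher and 32.7% lower), with shFABP4 2 taken to vary as the pLKO pair did. With shFABP4 2 left out it called all 39 as lower, beside 85.9% of 27830 genes called and 29.3% lower, and with either pLKO library left out it called 0. An exact permutation test of 2 libraries against 2 cannot go below p = 0.333.

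Most subunit genes carried enough mRNA to be read above the background of shFABP4 1. For 1023 coding genes, the RNA fragments predicted for shFABP4 1 from the pLKO libraries alone were at least 5 times the expected background. These are called abundant genes here, and 32 of the 39 subunit genes were among them. The 7 others were SDHA, SDHC, SDHD, UQCRB, UQCRC2, COX7A2L and ATP5F1A. Because the set was chosen on pLKO values, it can favour genes that are lower in shFABP4. Observed fragments of shFABP4 1 ranged from 0.949 times the expected background for SDHD to 146 times for COX7C.

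**Figure D2:**
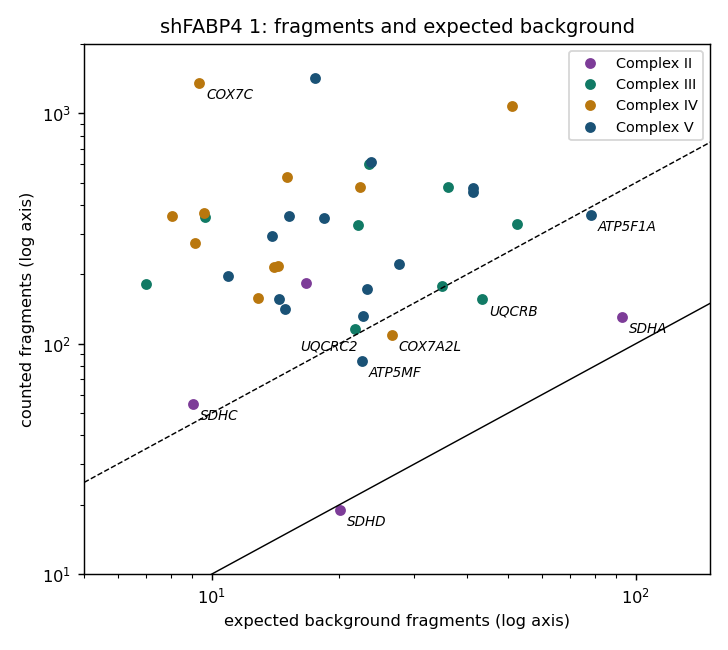
Fragments counted in shFABP4 1 against the background expected there from exon length and GC content (both log axes), 1 point per subunit gene, coloured by complex. The solid line marks equality and the dashed line 5 times the background: SDHD sits on the solid line with 19 fragments against 20.02 expected, and COX7C lies highest above it with 1360 against 9.33.

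Scaled on and tested among the 1023 abundant genes, the subunits split in both directions. The edgeR test called 11 of the 32, a share to be read beside 21.6% of all abundant genes. Of these, 8 rose (SDHB, UQCRH, COX5A, COX6C, COX7B, COX7C, ATP5F1C and ATP5PB), beside 10.1% of abundant genes higher, and 3 fell (UQCR11, ATP5MC1 and ATP5MF), beside 11.5% lower. The median log2 fold change of the 32 was 0.35, against -0.05 over the abundant genes. Among the 32, both shFABP4 libraries were below both pLKO libraries for 7 (41.2% of abundant genes) and above both for 17 (34.2%). These calls rest on few libraries: with either pLKO library left out 0 of the 32 were called (3 of 1023 genes in all, or 0.293%), with shFABP4 1 left out 32 were (beside 91.5% of abundant genes), and with shFABP4 2 left out 26 were (beside 73.9%). They were also absent from a wider set of 2094 genes at 2 times the background (0 of 36) and when libraries were scaled on all fragments (0 of 32). That last scaling moved the median to -0.93 over the 1023 abundant genes and to -0.45 over the 32 subunit genes.

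After the expected background was subtracted from shFABP4 1, 29 of the 38 subunit genes with a value in both shFABP4 libraries differed by less than 1.5-fold between them on the scale of the abundant genes. Of the abundant genes as a whole, 64.9% did. Values on this scale are called background-subtracted CPM below and carry no test. With them, 6 of the 32 abundant subunit genes were below pLKO in both shFABP4 libraries (41.3% of abundant genes) and 20 were above (35.9%).

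**Figure D3:**
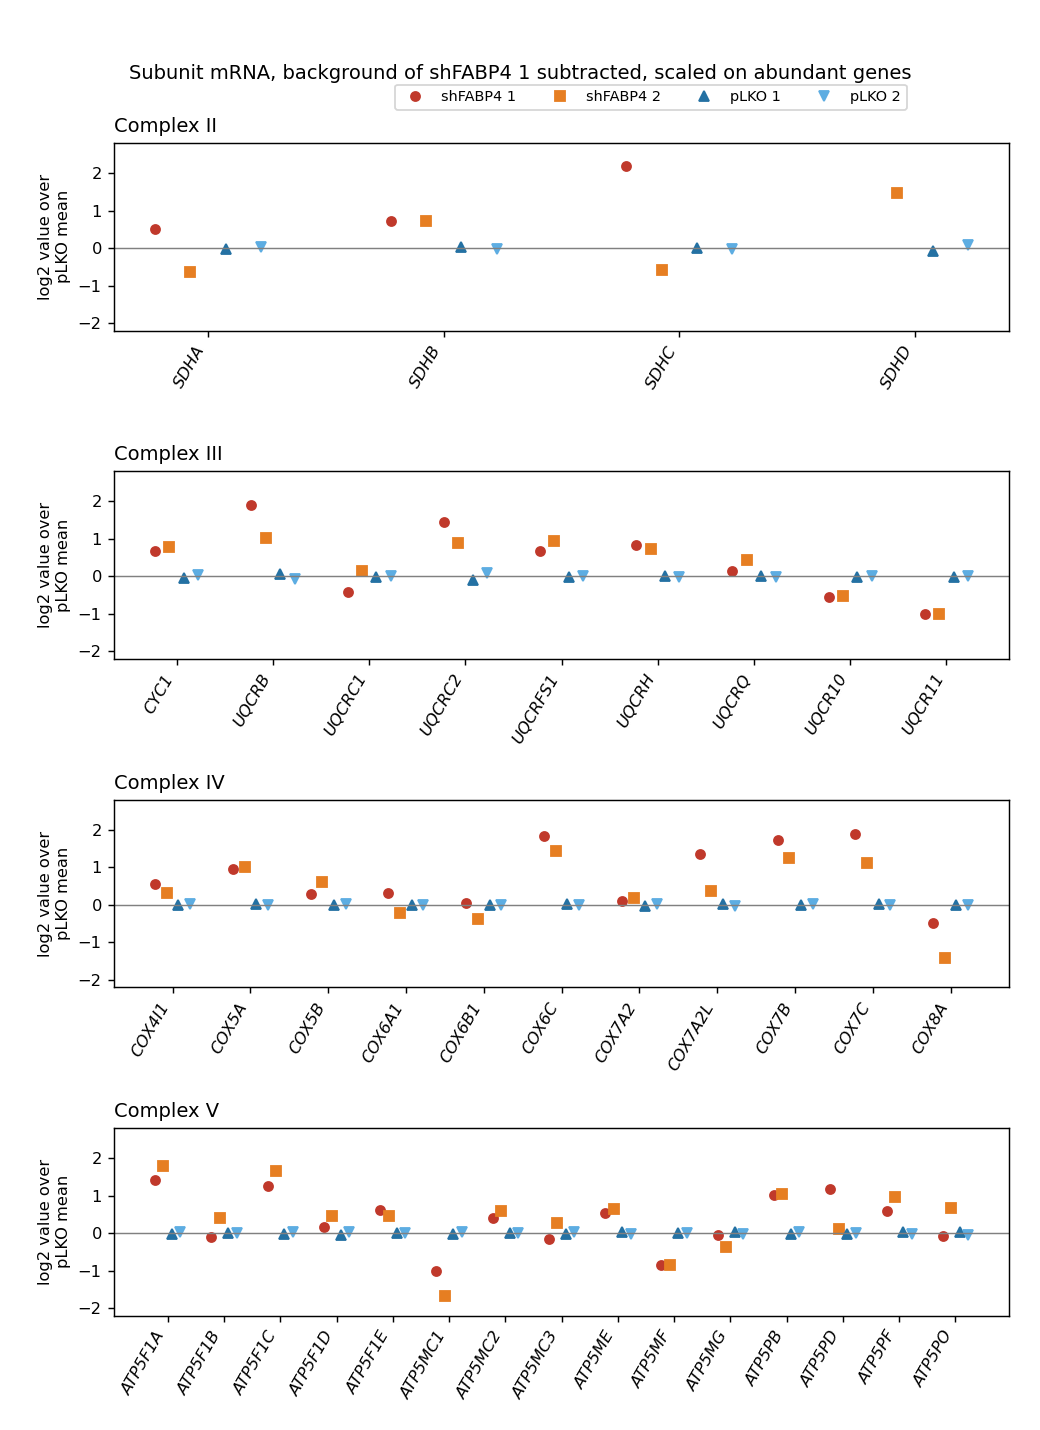
Background-subtracted CPM of each subunit gene as log2 over the pLKO mean, by complex, with 1 point per library. In UQCR11, ATP5MC1, ATP5MF and COX8A both shFABP4 points lie below both pLKO points, and on this scale both lie more than 1 log2 unit above in genes such as COX6C, COX7B, COX7C, ATP5F1A and ATP5F1C; SDHD has no shFABP4 1 point because its background-subtracted value is 0.

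The share of each complex in the summed subunit fragments does not depend on how libraries are scaled, and complex II was above pLKO in both shFABP4 libraries. Complex II held 2.83% and 1.63% in shFABP4 1 and 2, against 1.48% and 1.45% in pLKO 1 and 2, and per kb of exon 2.01% and 1.43% in shFABP4, against 1.06% and 1.03% in pLKO. Complex III held 19.9% and 22.2% in shFABP4, against 22.3% and 22.3% in pLKO, but per kb of exon 20.1% and 23.4% in shFABP4, on either side of the 21.6% and 21.7% of pLKO. Complex IV held 37.6% and 31.4% in shFABP4, against 33.1% and 33.0% in pLKO. Complex V held 39.7% and 44.8% in shFABP4, against 43.1% and 43.2% in pLKO. For complexes IV and V 1 shFABP4 library was above and 1 below both pLKO libraries, so no direction can be read for them or for complex III. With background subtracted complex II took 1.97% in shFABP4 1. Its genes did not move together: SDHA took 0.956% and 0.140% in shFABP4, against 0.272% and 0.279% in pLKO. SDHC took 0.401% and 0.0547% in shFABP4, against 0.105% and 0.103% in pLKO. Only SDHB and SDHD were above pLKO in both shFABP4 libraries, and with background subtracted only SDHB was. Within the summed fragments, the share of 18 of the 39 genes was above pLKO in both shFABP4 libraries and that of 11 was below. With background subtracted these were 16 and 11. Such shares are parts of a fixed total, so a rise in some genes lowers others. No matching count was made for genes outside the 39, so these counts do not set the subunits apart.

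In complex II, SDHB was the subunit that passed the test among abundant genes, and the other 3 were not abundant enough to enter it. SDHB encodes the iron-sulfur subunit that carries electrons from the flavin to ubiquinone, and lies at chr1:17018722-17054032 on the minus strand (GRCh38, as are all gene positions here). It had 183 and 5173 fragments in shFABP4 1 and 2, against 1690 and 2524 in pLKO 1 and 2. Background-subtracted CPM was 471 and 466 in shFABP4, against 288 and 280 in pLKO. Both shFABP4 values were above both pLKO values and close to each other. Among abundant genes SDHB rose 1.57-fold (log2 fold change 0.65 ± 0.13 SE, adjusted p = 0.0442), whereas scaled on all fragments its value was -0.18 and in the fit over all genes -0.57 ± 1.04 (adjusted p = 0.779). Its share of subunit fragments was 1.34% and 1.34% in shFABP4, against 1.05% and 1.02% in pLKO.

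SDHA, the flavoprotein that oxidises succinate, had 131 and 541 fragments in shFABP4, against 436 and 694 in pLKO, with 92.9 expected from background in shFABP4 1. Its normalised CPM was 34.1 and 30.5 in shFABP4 and 66.1 and 68.7 in pLKO, and both shFABP4 values were lower, with a log2 fold change of -1.06 ± 0.44 (adjusted p = 0.392). Background-subtracted CPM was 108 and 48.7 in shFABP4 and 74.4 and 77.0 in pLKO, so the shFABP4 libraries then lay on either side of pLKO. The 3 SDHA pseudogene names, which resemble the gene closely, held 237 and 163 fragments in shFABP4 and 39 and 71 in pLKO, so the value of SDHA is uncertain.

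SDHC and SDHD encode the membrane anchors that bind ubiquinone. SDHC had 55 and 212 fragments in shFABP4, against 169 and 255 in pLKO, and its normalised CPM of 14.3 and 12.0 in shFABP4 was below the 25.6 and 25.3 of pLKO. With background subtracted, SDHC was at 130 and 19.1 in shFABP4 and 28.8 and 28.3 in pLKO, again on either side. SDHD had 19 and 399 fragments in shFABP4, against 73 and 124 in pLKO. In shFABP4 1 that was the number expected from background, so SDHD was not detectable there, while in shFABP4 2 its background-subtracted CPM of 35.9 was above the 12.4 and 13.8 of pLKO. Neither passed the test over all genes (log2 fold changes -0.95 ± 0.45 and 0.25 ± 0.85).

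In complex III, 1 of the 7 abundant subunits fell and 1 rose. UQCR11, a small membrane subunit, lies at chr19:1597169-1605473 on the minus strand and had 178 and 4499 fragments in shFABP4, against 4686 and 7385 in pLKO. Its background-subtracted CPM was 405 and 405 in shFABP4, against 799 and 820 in pLKO. The shFABP4 values were close to each other and far below both pLKO values. Among abundant genes it fell 1.98-fold (log2 fold change -0.99 ± 0.11, adjusted p = 0.0251), and over all genes the value was -2.26 ± 1.13 (adjusted p = 0.403). Over 9 alternatives among abundant genes the adjusted p ran from 1.89e-07, with 1 shFABP4 library left out, to 0.403. UQCR10, another small membrane subunit, had background-subtracted CPM of 493 and 504 in shFABP4 and 719 and 724 in pLKO. Its groups did not overlap either, but it did not pass (log2 fold change -0.64 ± 0.14 among abundant genes, adjusted p = 0.0560). With the set of abundant genes predicted from 3 libraries, which called 36.7% of its genes, UQCR10 did pass (-0.77, adjusted p = 0.0232). Over all genes UQCR10 stood at -1.82 ± 1.18.

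UQCRH encodes the acidic hinge protein that helps cytochrome c dock on cytochrome c1, and was named after its value was seen. Its background-subtracted CPM was 976 and 913 in shFABP4, against 551 and 545 in pLKO. Both shFABP4 values were above both pLKO values. It rose 1.58-fold among abundant genes (log2 fold change 0.66 ± 0.12, adjusted p = 0.0392), while scaled on all fragments its value was -0.17 and over all genes -0.55 ± 1.12. The catalytic subunits around it were above pLKO in both shFABP4 libraries without passing. UQCRFS1, the Rieske iron-sulfur protein, had 867 and 1045 in shFABP4 and 536 and 550 in pLKO, with a log2 fold change of 0.74 ± 0.20 among abundant genes (adjusted p = 0.0819) and -0.38 ± 1.19 over all genes. CYC1, cytochrome c1, had 1261 and 1358 in shFABP4 and 767 and 818 in pLKO, with a log2 fold change of 0.64 ± 0.16 (adjusted p = 0.0673). Over all genes CYC1 stood at -0.53 ± 1.19, and among abundant genes with a correction for GC content and length at 0.93 (adjusted p = 0.0447).

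The core proteins UQCRC1 and UQCRC2 form the matrix part of the complex and gave different values. UQCRC1 had background-subtracted CPM of 790 and 1168 in shFABP4 and 1056 and 1065 in pLKO, on either side of pLKO, and a log2 fold change of -0.12 ± 0.25 among abundant genes. Over all genes the value of UQCRC1 was -1.21 ± 1.29. UQCRC2 was not among the abundant genes, with 116 and 2020 fragments in shFABP4 and 540 and 934 in pLKO. Its background-subtracted CPM was 267 and 182 in shFABP4, against 92.1 and 104 in pLKO, above in both libraries, while its log2 fold change over all genes was -0.27 ± 0.78. UQCRB, a small subunit near the ubiquinone site, had 156 and 1941 fragments in shFABP4 and 525 and 742 in pLKO, with 43.4 expected from background in shFABP4 1. With background subtracted it stood at 319 and 175 in shFABP4 and 89.5 and 82.3 in pLKO, and its log2 fold change over all genes was -0.02 ± 0.66. UQCRQ, the remaining subunit, had values of 1634 and 1998 in shFABP4 and 1485 and 1448 in pLKO.

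In complex IV, 4 of 10 abundant subunits rose and 0 fell, while the largest difference downward, in COX8A, did not pass. COX7C, COX7B and COX6C are small single-helix subunits that surround the catalytic core made from mitochondrial DNA. COX7C (chr5:86617928-86620962, plus strand) had 1360 and 24630 fragments in shFABP4, against 6129 and 9170 in pLKO, and its background-subtracted CPM was 3828 and 2219 in shFABP4, against 1045 and 1018 in pLKO. COX7B had 577 and 410 in shFABP4, against 172 and 175 in pLKO. COX6C had 411 and 315 in shFABP4, against 116.5 and 115.5 in pLKO. In all 3 genes both shFABP4 libraries were more than 2 times the pLKO values, with shFABP4 1 the higher of the pair.

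Among abundant genes COX6C rose 2.92-fold (log2 fold change 1.55 ± 0.14, adjusted p = 0.0246), and its value over all genes was 0.21 ± 0.89. COX7B rose 2.63-fold (1.39 ± 0.16, adjusted p = 0.0270), with 0.03 ± 0.90 over all genes (-0.05 there with the relative log expression scaling, RLE). COX7C rose 2.60-fold (1.38 ± 0.23, adjusted p = 0.0354), with -0.07 ± 1.08 over all genes. COX5A, a matrix-side subunit, was named after its value was seen. It had background-subtracted CPM of 572 and 591 in shFABP4, against 297 and 292 in pLKO, and rose 1.86-fold (0.89 ± 0.15, adjusted p = 0.0334, against -0.30 ± 1.08 over all genes). Of these 4, COX5A and COX6C also passed with a correction for GC content and length, and COX7B (adjusted p = 0.0517) and COX7C (adjusted p = 0.119) did not.

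COX8A (chr11:63974620-63976543, plus strand) encodes another small single-helix subunit, and 35.4% of its exon bases are shared with another gene name. It had 357 and 5769 fragments in shFABP4, against 8107 and 12546 in pLKO. Its background-subtracted CPM was 989 and 520 in shFABP4, against 1382 and 1392 in pLKO. The groups did not overlap, and shFABP4 2 was much the lower of the shFABP4 libraries. The log2 fold change was -1.06 ± 0.27 among abundant genes (adjusted p = 0.0737) and -2.56 ± 1.08 over all genes (adjusted p = 0.392), and -1.18 (adjusted p = 0.0471) with the set of abundant genes predicted from 3 libraries. With a correction for GC content and length its value was -0.07. COX8A was the top gene of the 39 per kb of merged exon in pLKO, at 1826 and 1835 CPM per kb. In shFABP4 2 it ranked 5, at 572 CPM per kb. For these values per kb, CPM was scaled on the total fragments of each library, without the TMM adjustment.

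The remaining complex IV subunits, except COX7A2L, were nearer to pLKO. COX6B1, which faces the cytochrome c side, had background-subtracted CPM of 1297 and 952 in shFABP4 and 1253 and 1243 in pLKO, and COX6A1 had 1021 and 706 in shFABP4 and 818 and 823 in pLKO. Both had 1 shFABP4 library on each side of pLKO, and their log2 fold changes among abundant genes were -0.28 ± 0.14 and -0.08 ± 0.15. Over all genes COX6B1 stood at -1.62 ± 1.13 and COX6A1 at -1.44 ± 1.07. COX4I1, the largest nuclear subunit, which joins the core early in assembly, was at 2913 and 2490 in shFABP4 and 1971 and 2015 in pLKO. COX5B, which holds a zinc ion, was at 1457 and 1834 in shFABP4 and 1197 and 1208 in pLKO. These 2 genes were above pLKO in both shFABP4 libraries without passing the test (adjusted p = 0.155 and 0.347 among abundant genes). COX7A2 was at 754 and 804 in shFABP4 and 696 and 722 in pLKO, a mean difference of 0.14 log2 units on this scale. COX7A2L, which links complex III to complex IV in supercomplexes, had 109 and 1302 fragments in shFABP4 and 546 and 812 in pLKO, and 26.6 were expected from background in shFABP4 1.

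In complex V, 2 subunits rose and 2 fell among the 14 abundant ones. ATP5F1C encodes the gamma subunit, the central shaft that turns inside the catalytic head, and lies at chr10:7788147-7807815 on the plus strand. It had 196 and 7741 fragments in shFABP4, against 1268 and 2037 in pLKO. Its background-subtracted CPM was 525 and 697 in shFABP4, against 216 and 226 in pLKO. Both shFABP4 values were more than 2 times both pLKO values, and it rose 2.62-fold among abundant genes (log2 fold change 1.39 ± 0.26, adjusted p = 0.0428), against 0.31 ± 1.16 over all genes. ATP5PB encodes subunit b of the peripheral stalk, which holds the head still. It had 360 and 371 in shFABP4, against 177 and 181 in pLKO, and rose 1.96-fold (0.97 ± 0.13, adjusted p = 0.0270), against -0.24 ± 1.01 over all genes.

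The other parts of the catalytic head were less uniform. ATP5F1A, the alpha subunit, was not an abundant gene by the rule, with 78.3 background fragments expected over its 10908 exon bases in shFABP4 1. It had 362 and 11601 fragments in shFABP4, against 1731 and 2766 in pLKO, and background-subtracted CPM of 804 and 1045 in shFABP4, against 295 and 307 in pLKO. Its values were the highest of the 39 genes relative to pLKO in shFABP4 2, and its log2 fold change over all genes was 0.48 ± 1.13 (adjusted p = 0.832). ATP5F1B, the catalytic beta subunit, had 1679 and 2380 in shFABP4 and 1781 and 1799 in pLKO, on either side of pLKO. Alpha and beta subunits alternate in the head in equal number. The share of ATP5F1A in subunit fragments was 2.64% and 2.995% in shFABP4, above the 1.08% and 1.11% of pLKO. That of ATP5F1B was 4.49% and 6.82% in shFABP4, on either side of the 6.52% and 6.53% of pLKO. ATP5F1D and ATP5F1E, the delta and epsilon subunits, did not pass the test (log2 fold changes 0.26 ± 0.21 and 0.40 ± 0.15 among abundant genes).

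ATP5MF encodes subunit f of the membrane part, at chr7:99448475-99466186 on the minus strand. It had 84 and 1922 fragments in shFABP4, against 1853 and 2825 in pLKO, and background-subtracted CPM of 174 and 173 in shFABP4, against 316 and 314 in pLKO. The shFABP4 libraries gave nearly the same value, well below pLKO. ATP5MF fell 1.72-fold among abundant genes (log2 fold change -0.79 ± 0.13, adjusted p = 0.0334), with -2.10 ± 0.98 over all genes. Background in shFABP4 1 was expected to give 22.6 fragments, so the observed count there was 3.72 times the background. ATP5MF entered the set through its pLKO values, a choice that can favour genes lower in shFABP4. ATP5MG, subunit g, which in yeast helps pair ATP synthases, had 794 and 642 in shFABP4 and 849 and 806 in pLKO. Its groups did not overlap, and its log2 fold change of -0.32 ± 0.12 among abundant genes did not pass (adjusted p = 0.123), with -1.62 ± 1.11 over all genes. ATP5ME, subunit e of the same part, had 969 and 1049 in shFABP4 and 683 and 666 in pLKO, but 61.3% of its exon bases are shared with MYL5 and its value is uncertain. The peripheral stalk genes ATP5PD, ATP5PF and ATP5PO did not pass, with log2 fold changes of 0.64 ± 0.38, 0.74 ± 0.22 and 0.36 ± 0.30.

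ATP5MC1 had the lowest fold change of the 39 genes. Together with ATP5MC2 and ATP5MC3 it encodes subunit c, the small protein that forms the rotating ring of the membrane part, and the 3 precursors yield the same mature protein. The coding stretch for that protein shows how the 3 genes can be told apart. It is given here from GENCODE 29 transcripts, 5′ to 3′, with capitals at the 52 of 225 bases that are not the same in all 3 genes.
ATP5MC1: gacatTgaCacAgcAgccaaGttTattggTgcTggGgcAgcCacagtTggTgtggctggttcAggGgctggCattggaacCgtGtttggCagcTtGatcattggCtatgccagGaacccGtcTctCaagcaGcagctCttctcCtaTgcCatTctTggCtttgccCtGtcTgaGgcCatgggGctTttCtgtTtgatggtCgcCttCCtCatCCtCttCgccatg
ATP5MC2: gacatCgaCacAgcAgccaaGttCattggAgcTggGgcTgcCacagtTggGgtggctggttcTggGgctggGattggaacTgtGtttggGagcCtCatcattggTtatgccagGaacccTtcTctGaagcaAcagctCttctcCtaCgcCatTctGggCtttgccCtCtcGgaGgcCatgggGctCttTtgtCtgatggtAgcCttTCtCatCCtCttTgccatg
ATP5MC3: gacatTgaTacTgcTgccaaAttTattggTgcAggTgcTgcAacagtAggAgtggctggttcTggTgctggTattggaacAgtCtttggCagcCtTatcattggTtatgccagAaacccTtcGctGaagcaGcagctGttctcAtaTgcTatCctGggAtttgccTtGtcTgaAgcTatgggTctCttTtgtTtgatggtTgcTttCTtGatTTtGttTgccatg
Of its 75 codons, 48 differ among the genes, and all 48 give the same amino acid in each. ATP5MC1 and ATP5MC2 are identical at 88.9% of these bases, and each is identical to ATP5MC3 at 81.3%. The longest run of bases that any pair shares here is 17.

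The mRNAs of the c subunit genes took different proportions in the groups. ATP5MC1 (chr17:48892765-48895871, plus strand) had 222 and 3877 fragments in shFABP4, against 6413 and 10269 in pLKO. ATP5MC2 had 457 and 14815 in shFABP4, against 5231 and 8064 in pLKO. ATP5MC3 had 351 and 14054 in shFABP4, against 6060 and 9788 in pLKO. Of the fragments of all 3, ATP5MC1 took 21.6% (95% Wilson interval 19.2 to 24.2) and 11.8% (11.5 to 12.2) in shFABP4, against 36.2% (35.5 to 36.9) and 36.5% (36.0 to 37.1) in pLKO. These intervals cover counting error only. ATP5MC2 took 44.4% and 45.2% in shFABP4, against 29.5% and 28.7% in pLKO, and ATP5MC3 took 34.1% and 42.9% in shFABP4, against 34.2% and 34.8% in pLKO. These shares do not depend on how a library is scaled. ATP5MC1 took 20.6% in shFABP4 1 with background subtracted, and per kb of exon 29.04% and 16.7% in shFABP4, against 45.8% and 46.1% in pLKO.

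**Figure D4:**
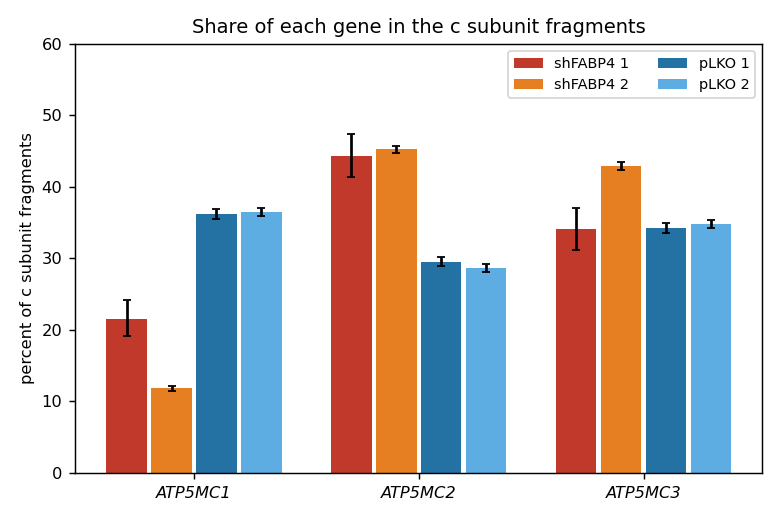
Percent of the summed fragments of ATP5MC1, ATP5MC2 and ATP5MC3 taken by each gene, with 1 bar per library and 95% Wilson intervals, which cover counting error only. ATP5MC1 took 21.6% and 11.8% in the shFABP4 libraries, below the 36.2% and 36.5% of pLKO, and ATP5MC2 was higher in both shFABP4 libraries.

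Background-subtracted CPM of ATP5MC1 was 551 and 349 in shFABP4, against 1094 and 1139 in pLKO, so the groups did not overlap. Among abundant genes it fell 2.62-fold (log2 fold change -1.39 ± 0.24, adjusted p = 0.0361), and over all genes the value was -2.84 ± 1.08 (adjusted p = 0.391). Over 9 alternatives among abundant genes the adjusted p ran from 3.87e-08, with 1 shFABP4 library left out, to 0.333. ATP5MC2 had 1178 and 1335 in shFABP4 and 892 and 895 in pLKO, and did not pass (0.43 ± 0.17, adjusted p = 0.147, against -0.74 ± 1.21 over all genes). ATP5MC3 had 943 and 1266 in shFABP4 and 1033 and 1086 in pLKO, on either side of pLKO, with -0.02 ± 0.26 among abundant genes and -1.09 ± 1.29 over all genes. Pseudogene names of ATP5MC1 held 64 and 44 fragments in shFABP4 and 67 and 91 in pLKO, few beside the gene itself in 3 of the libraries. All calls named in complexes II to V ended when either pLKO library was left out.

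The GC content of a transcript moved with its fold change, in the subunit genes as in other abundant genes. Over the 32 abundant subunit genes, Pearson's r between GC content and log2 fold change was -0.41 and Spearman's rho -0.46. Over all 1023 abundant genes both were -0.37, in points that share the same 4 libraries. Median GC content was 44.3% in the 8 genes that rose, 51.7% in the 3 that fell and 50.5% in the 21 others. With a correction for GC content and length, 7 subunit genes were called, beside 16% of abundant genes: COX5A, COX6C and CYC1 higher, and UQCR11, ATP5MC1, ATP5MF and ATP5MG lower. Of the 11 genes called without it, 5 passed in both fits. The part of GC content in these differences was not tested further.

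**Figure D5:**
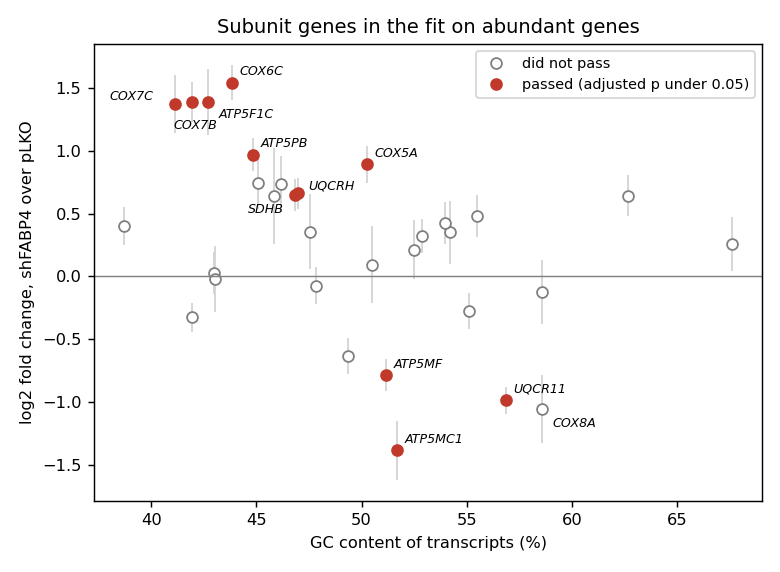
Log2 fold change (shFABP4 over pLKO, fit on abundant genes; bars are ± 1 SE) against GC content of the transcripts for the 32 abundant subunit genes. Filled points passed at an adjusted p under 0.05; the genes that rose lie between 41.1% and 50.3% GC and those that fell between 51.2% and 56.9%. In the fit over all genes SDHB, UQCRH, COX5A, COX7C and ATP5PB have values below 0.

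Promoters of respiratory genes are known for binding sites of NRF1, of ETS factors such as GABP, and of YY1. In RefSeq promoter sequences (GRCh38.p14, 250 bases before to 50 after the start), 31 of the 39 genes had an entry. The letters searched, on both strands, were GCGCA and GCGC with 1 base of any kind between them for NRF1, CCGGAAG for ETS factors and AAGATGGC for YY1. The NRF1 letters were in 9 of 31 promoters (29.03%), against 6.98% of 27305 promoters. The ETS letters were in 15 (48.4%, against 12.2%) and the YY1 letters in 5 (16.1%, against 3.52%). At least 1 of the 3 was in 22 of 31 (71.0%, against 20.01%), among them 4 of the 7 matched genes that rose, 1 of the 2 matched genes that fell and 14 of the 17 matched abundant genes that passed neither way. Stretches of 100 bases are shown for 2 genes that fell and 2 that rose, 5′ to 3′ along the gene, with matches in capitals.
ATP5MC1: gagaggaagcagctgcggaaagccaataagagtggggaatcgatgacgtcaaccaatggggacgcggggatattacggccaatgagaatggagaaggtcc
UQCR11: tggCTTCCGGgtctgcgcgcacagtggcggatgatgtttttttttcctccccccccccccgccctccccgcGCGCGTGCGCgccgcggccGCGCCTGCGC
SDHB: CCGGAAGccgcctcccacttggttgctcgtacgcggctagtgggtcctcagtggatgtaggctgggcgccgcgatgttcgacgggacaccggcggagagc
ATP5F1C: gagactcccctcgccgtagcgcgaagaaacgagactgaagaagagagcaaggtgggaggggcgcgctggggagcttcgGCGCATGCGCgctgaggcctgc
These lie at chr17:48892687-48892786 (plus strand), chr19:1605463-1605562 (minus), chr1:17054061-17054160 (minus) and chr10:7788077-7788176 (plus). The UQCR11 stretch holds 1 ETS and 2 NRF1 matches, the SDHB stretch 1 ETS match, the ATP5F1C stretch 1 NRF1 match and the ATP5MC1 stretch none of the 3. Matching letters do not show that a factor binds, and their absence from a window says nothing of the factor.

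Genes that build or regulate these complexes were read from further lists, none of which held a gene called over all genes. Of the complex II assembly factors, SDHAF1, which protects the iron-sulfur clusters of SDHB during assembly, had 58 and 464 fragments in shFABP4, against 1511 and 2287 in pLKO. Its log2 fold change was -3.46 ± 0.64 over all genes (adjusted p = 0.391) and -1.70 ± 0.64 among abundant genes (adjusted p = 0.137). SDHAF2, which helps insert the flavin into SDHA, was named after its value was seen. It had background-subtracted CPM of 201 and 190 in shFABP4, against 367 and 343 in pLKO, and fell by 0.89 ± 0.12 log2 units among abundant genes (adjusted p = 0.0270). Over all genes both shFABP4 libraries were below both pLKO libraries for 3 of 4 complex II, 4 of 6 complex III and 11 of 21 complex IV assembly factors tested, and above for 0, beside the 26.1% and 28.5% of all genes given above. The same held for 3 of 6 assembly and regulatory factors of complex V, 1 of 4 tested among 11 further subunits and 2 of 2 genes of cytochrome c and its loading, again with 0 above. These counts are on the scale over all genes, on which shFABP4 1 was low, and did not hold for each gene with background subtracted. SDHAF2 stayed below, but ATP5MJ, a further subunit, was at 733 and 643 in shFABP4, against 454 and 461 in pLKO. UQCC1 of complex III was at 134 and 106 in shFABP4, against 133 and 128 in pLKO. CYCS was at 132 and 165 in shFABP4, against 137 and 139 in pLKO. Of the complex IV assembly factors, 6 were abundant genes and 0 of them passed (log2 median -0.16).

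ATP5IF1, the inhibitor that stops complex V from running backwards, was the list gene furthest above pLKO among abundant genes. It had 554 and 14837 fragments in shFABP4, against 1845 and 2912 in pLKO. Its background-subtracted CPM was 1525 and 1337 in shFABP4, against 315 and 323 in pLKO, a gap that no subunit of complex V reached. It rose by 2.04 ± 0.12 log2 units among abundant genes (adjusted p = 0.0221), against 0.79 ± 1.10 over all genes. NDUFA4, now counted as a subunit of complex IV, had 992 and 794 in shFABP4, against 452 and 441 in pLKO, and rose by 0.87 ± 0.11 log2 units among abundant genes (adjusted p = 0.0270), with -0.43 ± 1.05 over all genes. CYCS, cytochrome c itself, had 74 and 1828 fragments in shFABP4 and 806 and 1249 in pLKO, and its log2 fold change over all genes was -1.001 ± 0.92. The 6 mitochondrially encoded subunits of complexes III, IV and V were listed at 0 in all 4 libraries, so that side of these complexes could not be read. Of the regulators of respiratory genes, 13 of 14 were tested and 0 passed, and 5 were below and 3 above pLKO in both shFABP4 libraries. The 2 with the smallest p, PPARGC1B and ESRRA, encode a coactivator and a nuclear receptor of mitochondrial genes. PPARGC1B had 160 and 36 fragments in shFABP4, against 11 and 31 in pLKO, with 211 expected from background in shFABP4 1. ESRRA had 189 and 216 in shFABP4, against 65 and 104 in pLKO, with 56.9 expected.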

How the data were processed

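The deposited table holds unnormalised fragment counts by gene name for 4 libraries, which the authors made with featureCounts 2.0.0 and GENCODE 38, per the file headers. Per the submitters' processing notes, FastQC, HISAT and StringTie were used with GRCh38. TRIzol RNA was enriched for mRNA on beads and fragmented with Tn5, per the labels' protocols. No strand option was set, per the file headers, so a gene cannot be told apart from an overlapping or antisense partner. Gene types, GC content and coding sequences came from GENCODE 29, to which 63.6% of names matched, and promoters from RefSeq. The row of 1 gene, broken over 7 lines, was left out. Depth ran from 2539862 to 20431660 fragments. Sampling noise alone did not account for the differences between the pLKO libraries (chi-square over degrees of freedom 2.16, 13291 genes). That excess may be technical and does not show separate cultures, which the labels do not name. The tests treated each library as 1 sample.

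The test was that of edgeR 4.0.16 in R 4.3.3 (filterByExpr with minimum count 10 and minimum total 15, TMM, robust quasi-likelihood F test, two-sided, Benjamini-Hochberg over all genes tested, threshold 0.05). DESeq2 1.42.0 and limma-voom (limma 3.58.1) were alternatives. The edgeR test was also tried on simulated data, with the spread taken from the fits of these data. Simulated libraries shared the same mean profile apart from the changed genes, without a background particular to shFABP4 1. That trial therefore cannot show how the test behaves on these data. Background in shFABP4 1 was set in 6 bins of GC content. The set of abundant genes, its own scaling and the subtraction of background were chosen after the data had been seen, and members and lists were chosen with earlier results of these data known. Values were given for all complex II genes, and in each other complex for the 3 genes with the highest and the 3 with the lowest log2 fold change over all genes, for the c subunit genes, and for genes called among abundant genes. Outside this rule, values were also given for CYC1, UQCRQ, COX4I1, COX5B, COX7A2, COX7A2L, ATP5F1B and ATP5ME. From each further list the 2 tested genes with the smallest p in each direction could be named; ATP5IF1 and NDUFA4 met this. The correction for GC content and length used splines with 4 degrees of freedom per library. Fold changes are shFABP4 over pLKO. Each SE, given after ±, is the absolute log2 fold change over the square root of the F statistic, so it restates the test.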

Additional observations from a re-analysis of the deposited data

How the results depend on the processing

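Values are log2 fold changes (shFABP4 over pLKO), given below for results that changed sign or count. The cause of a change was not tested. Where members below or above pLKO are counted without a percentage, the share over all genes was not computed. Such a count shows no difference from other genes. On the test over all genes, upper-quartile scaling gave UQCRB 0.13 and COX7C 0.046, and RLE scaling and the fit with no low-count filter gave COX7B -0.046 and -0.043. DESeq2 gave COX7B -0.047 and called 1 member. Offsets for GC content and length gave COX7C 0.15. Limma-voom gave COX6C -0.65, COX7B -0.80, ATP5F1A -0.66 and ATP5F1C -1.04. Total-count scaling gave SDHA 0.0032, SDHC 0.13, UQCRB 0.70, UQCRC2 0.36, UQCRFS1 0.087, COX7C 0.55 and ATP5PB 0.27, with 11 members below and 6 above pLKO in both shFABP4 libraries.

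The replicate numbers did not pair the libraries (correlation of same-numbered deviations 0.0106). With the number as a replicate block, SDHD was at -0.12, COX6C at -0.19, COX7B at -0.35, ATP5F1A at -0.11 and ATP5F1C at -0.39, and 0 members and 28 genes were called over all genes. Among abundant genes the block left 9 members called, 8 of them among the 11, beside 25.8% of genes.

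Leaving out 1 library at a time, members called ran from 0 to 39 (without shFABP4 2, where 85.9% of genes were called), members below pLKO from 18 to 39, members above from 0 to 19 and the member median from -3.84 to -0.042. The values ran from -3.61 to 0.21 for SDHB, -2.44 to 0.94 for SDHD, -2.11 to 0.52 for UQCRB, -2.74 to 0.38 for UQCRC2, -3.70 to 0.44 for UQCRFS1, -2.53 to 0.93 for COX6C and -2.64 to 0.74 for COX7B. They ran from -2.58 to 0.60 for COX7C, -2.71 to 1.29 for ATP5F1A, -3.15 to 1.15 for ATP5F1C, -3.31 to 0.54 for ATP5PB and -3.94 to 0.072 for ATP5MC2. Where only 1 library of a group is left, it is assumed to vary like the other group. Among abundant genes, members called numbered 32 without shFABP4 1 (91.5% of genes), 26 without shFABP4 2 (73.9%) and 0 without either pLKO library (0.293%).

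With the test confined to abundant genes, 11 of 32 members passed, beside 21.6% of abundant genes. In both shFABP4 libraries 7 were below pLKO and 17 above, beside 41.2% and 34.2% of abundant genes. In this set SDHB was at 0.65, UQCRFS1 at 0.74, COX7C at 1.38, ATP5PB at 0.97 and ATP5MC2 at 0.43. With that set predicted from 3 libraries, 13 of 32 passed, beside 36.7% of 1033 genes, COX8A (adjusted p = 0.0471) and UQCR10 (adjusted p = 0.0232) among them, 9 were below and 15 above, and the same 5 genes were at 0.52, 0.61, 1.25, 0.84 and 0.29. At 2 times the background, 0 of 36 passed (11 at an unadjusted p under 0.05), 8 were below and 14 above, and SDHB was at 0.47, SDHC at 0.83, UQCRC2 at 0.96, UQCRFS1 at 0.58, COX7C at 1.15, ATP5PB at 0.80 and ATP5MC2 at 0.26. With offsets for GC content and length 7 members passed, beside 16% of genes. Scaled on all fragments 0 passed (1 at an unadjusted p under 0.05), with SDHB at -0.18 and UQCRH at -0.17.

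Subtracting background put 6 of the 39 members below pLKO in both shFABP4 libraries and 24 above. Among the 32 abundant members these were 6 and 20, beside 41.3% and 35.9% of abundant genes. It put SDHB at 0.72, SDHC 0.81, SDHD -0.88, UQCRB 1.46, UQCRC2 1.18, UQCRFS1 0.81, COX7C 1.499, COX6A1 0.051, ATP5PB 1.03, ATP5MC2 0.49 and ATP5MC3 0.045. Per kb of exon, the share of complex IV differed by -3.32 percentage points (shFABP4 minus pLKO), against 1.45 as counted, that of complex III by 0.13, against -1.27, and that of complex V by 2.51, against -0.95. The RNA predicted for shFABP4 1 was under 5 times the background for 7 members, and lowest for SDHD (0.489 times) and SDHA (0.608 times).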
